A study of Hordeum vulgare with 6 samples.

Results

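Barley genes annotated as WRKY transcription factors were examined in young panicles of the *msnsd* mutant and of E934. Members were the genes whose deposited description contains the word WRKY in any case, which gave 94 of the 40411 genes in the table. Of these, 73 averaged 0.1 TPM or more over the 6 libraries and were compared between genotypes, among 32996 genes that passed the same filter. A mean of at least 1 TPM was reached by 48 members. TPM, transcript abundance corrected for length and scaled to a common library total, allows levels to be set beside each other between genes.

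E934 is a feed barley variety and the wild type of the comparison. *msnsd*, named for multiple stem nodes and spikes and dwarf stature, is a mutant line selected from E934 after treatment with ethyl methane sulfonate and 60Co. Immature spikes of 0.5 to 1 cm, between the glume and lemma primordium stages, were collected in 3 biological replicates of each genotype. The comparison is of 1 mutant line with its parent, so the effects of any other induced mutations in the line cannot be told apart from those of the mutation behind its name. Genes of young spikes (82 genes described as MADS-box, YABBY, knotted or Squamosa promoter-binding factors) were present in every library, with 2330 to 2477 TPM in sum. The samples are whole panicles, in which fewer cells of a type and less RNA per cell cannot be told apart.

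WRKY proteins are a large plant family of transcription factors named after a conserved run of amino acids at the start of their DNA-binding domain, which is completed by a zinc finger and binds the W box of target promoters. Many act in immunity, wounding and senescence, and others in sugar signalling, trichomes and seeds. They are commonly sorted by the number of WRKY domains, by the type of zinc finger and by added motifs. Proteins with a pair of domains form one group, and one subgroup of the single-domain proteins carries a plant zinc cluster that lies beside the domain. Several WRKY genes are induced quickly after handling or infection, and some WRKY proteins bind W boxes in the promoters of WRKY genes.

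The label was checked against the deposited Pfam domains. A WRKY domain (PF03106) was listed for 76 of the 94 members. A single domain without the zinc cluster was listed for 57 members, a single domain with the zinc cluster (PF10533) for 8, and 2 domains for 11. No WRKY domain was listed for the other 18 members, 8 of which are high-confidence gene models, so these were counted on their description. GO terms are also listed for 7 of the 18. Of the 11 low-confidence models in the family, 10 belong to that class. Members lie on all 7 chromosomes, with 22 on 3H and 19 on 1H but 6 on 4H.

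Expression of the family was concentrated in a few genes. The 13 members with a mean of at least 30 TPM held 78.6% of the WRKY TPM. A further 6 members lay between 10 and 30 TPM, 29 between 1 and 10, 25 between 0.1 and 1, and 21 below 0.1. The family was thus nearly evenly divided around 1 TPM. Levels differed between the domain classes. The 6 tested zinc-cluster members had a median of 31.8 TPM, and the lowest of them had 6.79 TPM. The class also holds HORVU.MOREX.r3.5HG0434270 and HORVU.MOREX.r3.5HG0519920, which averaged 0.0167 and 0.0083 TPM and were left out by the filter. The 9 tested members with 2 domains had a median of 9.55 TPM, the 44 with a single domain 1.36 TPM, and the 14 without a listed domain 0.624 TPM, against 5.11 TPM over all genes tested. These medians cover only the members that passed the filter and were not tested.

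**Figure D1:**
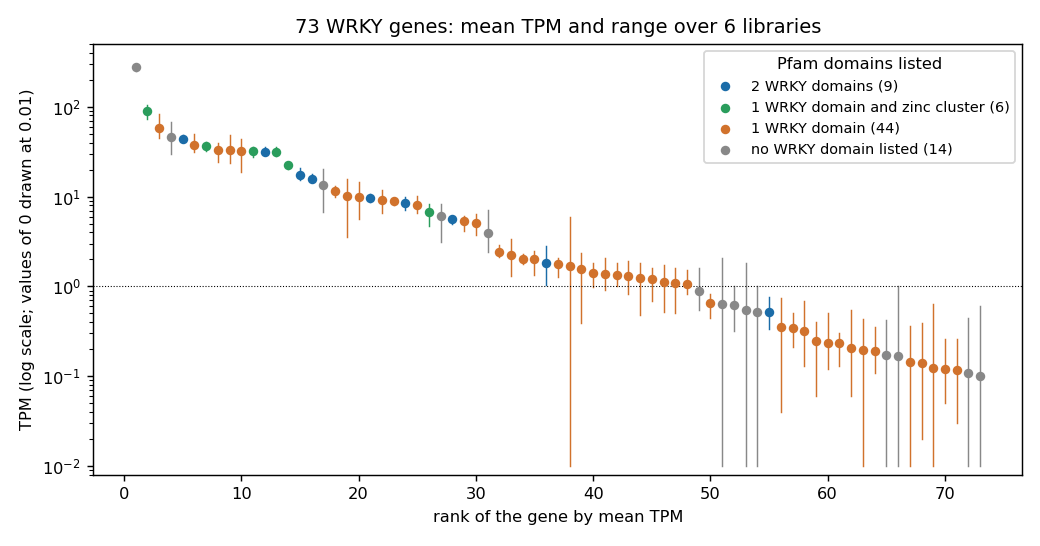
Mean TPM of the 73 tested WRKY genes on a log axis against their rank by mean TPM, coloured by the Pfam domains listed, with lines from the lowest to the highest of the 6 libraries (values of 0 drawn at 0.01 TPM) and a dotted line at 1 TPM. HORVU.MOREX.r3.2HG0207010 stands above all others at 251 to 298 TPM, and the tested zinc-cluster genes all lie in the upper part with a lowest mean of 6.79 TPM.

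The most abundant member was HORVU.MOREX.r3.2HG0207010, described as WRKY DNA-binding protein 58, on 2H from 640674745 to 640677820 of the Morex V3 assembly. It read 297, 296 and 298 TPM across the E934 libraries and 259, 257 and 251 TPM across those of *msnsd*. The libraries did not overlap, and the 3 values of each genotype lay close together (297 ± 0.894 against 256 ± 3.93 TPM, SD, n = 3). Its log2 fold change of *msnsd* over E934 was -0.22 (SE 0.06), with a limma adjusted p of 0.285 after Benjamini-Hochberg correction over all genes tested. No WRKY domain, InterPro entry or GO term is listed for this high-confidence model, so its place in the family rests on the description. It supplied between 23.4% and 31.5% of all WRKY TPM in a library.

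The next member by level was HORVU.MOREX.r3.2HG0192860 (2H, 606019222 to 606020488), which has a WRKY domain and the zinc cluster. Its levels were 86.9, 81.3 and 73.4 TPM across the E934 libraries and 88.5, 101 and 104 TPM across those of *msnsd*. The lowest *msnsd* library was just above the highest E934 library, and the log2 fold change was 0.28 (SE 0.10, limma adjusted p = 0.382). HORVU.MOREX.r3.6HG0568570 (6H, 113339202 to 113341024), with a single domain, read 44.5, 68.7 and 45.2 TPM across the E934 libraries and 63.0, 48.8 and 82.1 TPM across those of *msnsd*. Its libraries overlapped and differed within each genotype by more than the genotypes did.

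Other abundant members overlapped between genotypes. HORVU.MOREX.r3.2HG0130890 (2H, 135588981 to 135596888), a member with 2 domains, read 42.4, 49.0 and 43.2 TPM across the E934 libraries and 43.6, 41.3 and 45.0 TPM across those of *msnsd*, with a log2 fold change of -0.05 (SE 0.09). HORVU.MOREX.r3.5HG0509460 (5H, 523994766 to 523997934), with the zinc cluster, read 32.1, 40.6 and 39.5 TPM across the E934 libraries and 33.8, 38.5 and 36.2 TPM across those of *msnsd*, with a log2 fold change of -0.04 (SE 0.11). Both differences were smaller than their standard errors. HORVU.MOREX.r3.3HG0288940 (3H, 486811076 to 486812686) read 24.5, 39.8 and 39.3 TPM across the E934 libraries and 27.5, 33.4 and 35.9 TPM across those of *msnsd*. HORVU.MOREX.r3.3HG0238240 (3H, 56227866 to 56233095) read 31.6, 32.4 and 36.5 TPM across the E934 libraries and 33.3, 50.1 and 38.6 TPM across those of *msnsd*. Both carry a single domain, and their log2 fold changes were -0.07 (SE 0.21) and 0.26 (SE 0.15), the latter 0.099 without *msnsd* replicate 2.

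HORVU.MOREX.r3.1HG0042310, described as WRKY DNA-binding protein 60, is a low-confidence model of 390 bp on 1H (272581893 to 272582282) with no listed domain. It read 67.3, 29.6 and 34.6 TPM across the E934 libraries and 47.9, 50.2 and 43.7 TPM across those of *msnsd*. Replicate 1 of E934 stood above all other libraries and the other E934 libraries stood below them. Without that replicate the log2 fold change was 0.56, against 0.20 with it, and the adjusted p was 0.123 by limma.

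No WRKY gene passed the threshold, set at 1.5 for the absolute log2 fold change and at 0.05 for the adjusted p, where 0.0485% of all genes tested did (16 of 32996). The test was limma on log2(TPM + 0.1). The limits are those of the paper, which applied them with DESeq2 and called more transcripts than this test called genes. At an unadjusted p under 0.05 there were 8 members, 7 of them higher and 1 lower in *msnsd*, or 11.0% of the family beside 10.7% of all genes. The share of the family that met this weaker cut was thus near that of the genome. By direction, 9.59% of members were higher and 1.37% lower, beside 5.57% and 5.09% of all genes. The smallest adjusted p of any member was 0.198. These counts rested in part on single libraries. Members higher were 3 without *msnsd* replicate 3 and 4 without E934 replicate 1 or *msnsd* replicate 1. Members lower were 3 without E934 replicate 1 and 2 without E934 replicate 2. The count over all genes, 3519 in both directions with every library, moved as well. It was 5160, 3000 and 3409 without E934 replicate 1, 2 or 3, and 3082, 2965 and 2296 without *msnsd* replicate 1, 2 or 3.

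More members lay above than below the level of E934. The log2 fold change was above 0 for 50 of the 73 members (68.5%) and below 0 for 23, where 47.6% of all genes were above 0 and 52.4% below. The median was 0.17, against -0.02 over all genes tested, and members ranged from -1.59 to 1.44. For 12 members no library of one genotype fell within the range of the other (16.4%, beside 16.6% of all genes). Of these, 11 were higher in *msnsd* (15.1%, beside 8.73% of all genes) and 1 was lower (1.37%, beside 7.85%). The 11 include HORVU.MOREX.r3.1HG0039360 and HORVU.MOREX.r3.1HG0070910, with E934 means of 0.057 and 0.06 TPM. Both passed the filter only through their *msnsd* means of 0.29 and 0.177 TPM. All genes went through the same filter. Genes of a family are not independent of each other, and these shares are given as counts without a test.

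**Figure D2:**
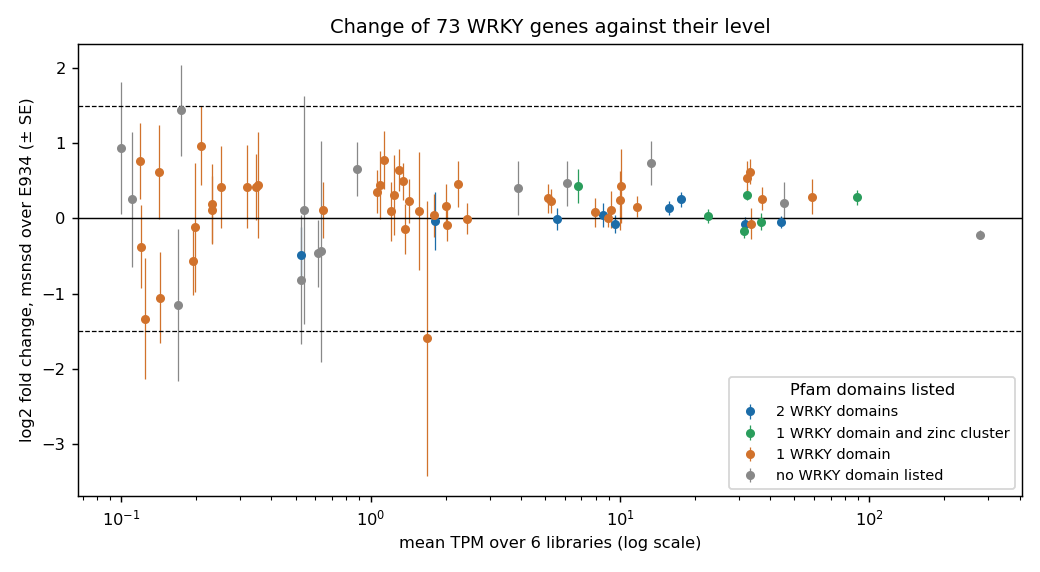
Log2 fold change of *msnsd* over E934 for the 73 tested WRKY genes (vertical axis, bars give the standard error) against mean TPM on a log axis, coloured by the Pfam domains listed, with dashed lines at the fold change threshold of 1.5 in each direction. Of the points, 50 lie above 0, and the widest bar, with an SE of 1.83, belongs to HORVU.MOREX.r3.1HG0090520.

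Members with a zinc cluster included the gene of smallest p. HORVU.MOREX.r3.2HG0158690 (2H, 399656549 to 399658049) read 28.7, 29.6 and 27.8 TPM across the E934 libraries and 35.3, 36.0 and 35.7 TPM across those of *msnsd*. The genotypes were well apart and replicates nearly equal (28.7 ± 0.885 against 35.7 ± 0.351 TPM, SD, n = 3). The log2 fold change was 0.31 (SE 0.07, limma adjusted p = 0.198). The difference was larger than the spread between replicates, yet it did not pass the correction over all genes and is far below the fold change threshold. The 6 tested members of the class were mixed, with 4 above 0 and a range of log2 fold changes from -0.17 to 0.44.

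Among single-domain members, the clearest case was HORVU.MOREX.r3.5HG0474130 on 5H (394399741 to 394401425). It read 25.2, 29.7 and 23.5 TPM across the E934 libraries and 32.4, 40.3 and 49.0 TPM across those of *msnsd*. All *msnsd* libraries lay above all E934 libraries, and the log2 fold change was 0.62 (SE 0.17, limma adjusted p = 0.269). HORVU.MOREX.r3.2HG0185550 (2H, 575128712 to 575132543) read 18.7, 28.01 and 33.4 TPM across the E934 libraries and 36.9, 33.0 and 44.3 TPM across those of *msnsd*. There the lowest *msnsd* library fell just under the highest E934 library, and the log2 fold change was 0.54 (SE 0.22, limma adjusted p = 0.451), or 0.30 without E934 replicate 1. In this class 34 of 44 log2 fold changes were above 0, with a median of 0.23.

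The class with 2 domains had a median log2 fold change near 0. Of its 9 tested members 3 had a log2 fold change above 0 and 6 below, with a median of -0.04. HORVU.MOREX.r3.2HG0128680 (2H, 118296258 to 118300290) was its only member with an unadjusted p under 0.05. It read 15.2, 16.0 and 16.8 TPM across the E934 libraries and 18.6, 17.9 and 20.7 TPM across those of *msnsd*, without overlap, and a log2 fold change of 0.25 (SE 0.10, limma adjusted p = 0.432). The summed TPM of the class was 132, 140 and 131 in E934 and 136, 135 and 137 in *msnsd*.

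Among members without a listed domain, a gene near the filter also met the weaker cut without overlap. HORVU.MOREX.r3.1HG0039360, described as WRKY6, is a model of 446 bp on 1H (248886427 to 248886872). It was listed at 0, 0.17 and 0 TPM across the E934 libraries and at 0.27, 0.42 and 0.18 TPM across those of *msnsd*. Its E934 mean of 0.057 TPM was under the filter, which it passed only through its *msnsd* mean of 0.29 TPM. The libraries did not overlap, but all values lay near the filter. The log2 fold change of 1.44 (SE 0.61, limma adjusted p = 0.466) moved between 0.29 and 3.44 with the pseudocount. It moved between 1.20 and 1.92 with 1 library left out. HORVU.MOREX.r3.2HG0161440 (2H, 426399831 to 426403502), described as WRKY1b, lies outside the rule for named genes and was picked once its values had been seen. Its libraries read 9.86, 13.6 and 6.72 TPM across the E934 libraries and 17.9, 11.6 and 20.1 TPM across those of *msnsd*, with overlap. Its log2 fold change of 0.73 (SE 0.30, limma adjusted p = 0.449) was the largest in absolute value among members with a mean of at least 10 TPM.

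**Figure D3:**
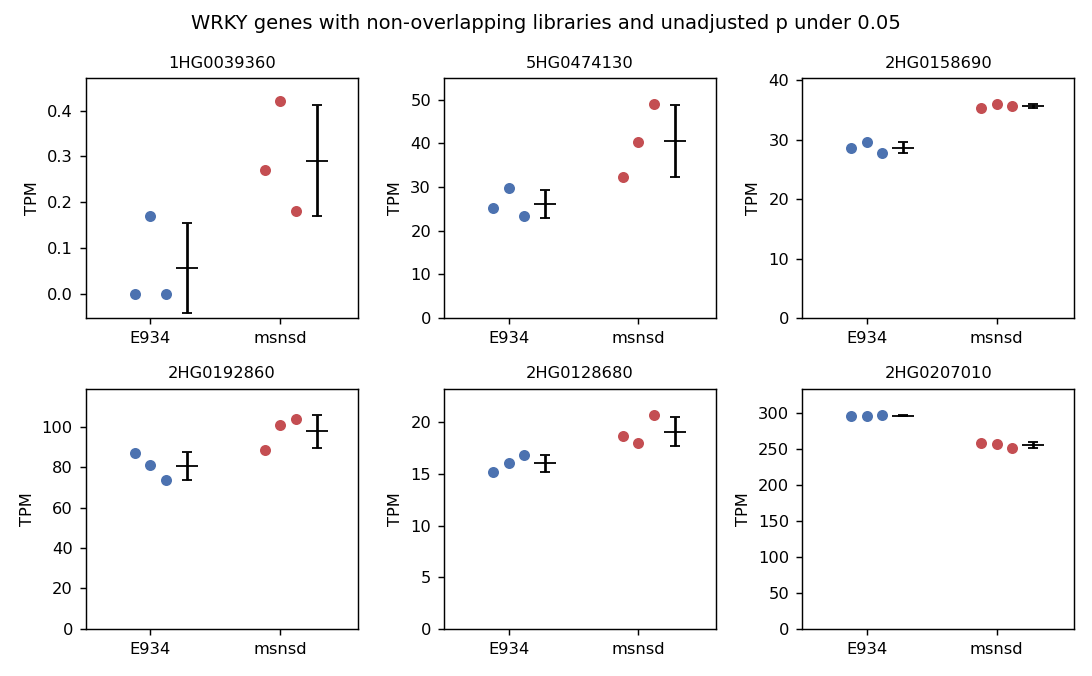
TPM per library of the 6 WRKY genes whose libraries did not overlap between genotypes and whose unadjusted p was under 0.05, with the mean and SD of the 3 libraries beside the points. *msnsd* lies above E934 in 5 panels and below it for HORVU.MOREX.r3.2HG0207010, and the vertical axes differ between panels. HORVU.MOREX.r3.1HG0039360 passed the filter only through its *msnsd* values.

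The sum of all WRKY TPM was nearly the same in both genotypes. It was 942, 1015 and 958 TPM across the E934 libraries and 989, 996 and 1073 TPM across those of *msnsd*, a ratio of 1.05, and the libraries overlapped. The log2 fold change of the most abundant gene was below 0 and that of most others above 0. Without HORVU.MOREX.r3.2HG0207010, a choice made after seeing the data, the sums were 645, 719 and 660 TPM across the E934 libraries and 730, 738 and 821 TPM across those of *msnsd*, a ratio of 1.13 without overlap. Zinc-cluster members summed to 203, 212 and 209 TPM across the E934 libraries and 217, 234 and 237 TPM across those of *msnsd*. Single-domain members summed to 218, 312 and 268 TPM across the E934 libraries and 296, 292 and 369 TPM across those of *msnsd*, so that E934 replicate 2 reached above both lower *msnsd* libraries.

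The spread between replicates of a genotype depended on level. Among the 48 members with a mean of at least 1 TPM, the median within-genotype SD was 0.256 on the log2 scale, against 0.183 over all genes at that level. Abundance differs between these sets, and classes of level went both ways. Below 0.1 TPM the median was 0.444 for WRKY genes and 0.451 for all genes, and between 0.1 and 1 TPM it was 0.636 and 0.796. Between 1 and 10 TPM the median was 0.327 for WRKY genes and 0.299 for all genes, between 10 and 30 TPM 0.133 and 0.147, and from 30 TPM upward 0.147 and 0.124. By domain class, the median SD was 0.327 for the 29 single-domain members, 0.109 for the 6 zinc-cluster members and 0.0958 for the 8 members with 2 domains. The steadiest member was HORVU.MOREX.r3.2HG0207010, with an SD of 0.016.

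Among members with a mean of at least 1 TPM, the 5 of largest spread carry a single domain without the zinc cluster. HORVU.MOREX.r3.1HG0090520 (1H, 505044833 to 505045597) was listed at 0, 5.89 and 1.29 TPM across the E934 libraries and at 0, 0 and 2.93 TPM across those of *msnsd*. Its SD was 2.92 and its log2 fold change, the lowest of the family at -1.59, had an SE of 1.83, so the genotypes were not distinguishable. HORVU.MOREX.r3.1HG0092420 (1H, 508970090 to 508973032) read 0.39, 2.36 and 1.83 TPM across the E934 libraries and 2.37, 0.45 and 2.0 TPM across those of *msnsd*. One library of each genotype was thus several-fold below its replicates.

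The other 3 members of this set also varied within genotypes. HORVU.MOREX.r3.3HG0278140 (3H, 416545979 to 416548740) read 5.56, 12.6 and 9.11 TPM across the E934 libraries and 11.9, 6.07 and 14.6 TPM across those of *msnsd*. HORVU.MOREX.r3.7HG0743280 (7H, 611228529 to 611229667) read 1.17, 1.68 and 0.48 TPM across the E934 libraries and 1.6, 0.68 and 1.80 TPM across those of *msnsd*. HORVU.MOREX.r3.1HG0090460 (1H, 504967583 to 504968371) read 3.56, 10.5 and 13.0 TPM across the E934 libraries and 8.62, 8.91 and 15.8 TPM across those of *msnsd*. In *msnsd*, replicate 3 was the highest library for all 3 of these genes.

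The order of the replicates was compared across the family. The lowest E934 library was replicate 1 for 34 of the 73 members (46.6%, beside 35.6% of all genes), and the highest was replicate 2 for 34 (46.6%, beside 45.2%). In *msnsd*, replicate 2 was lowest for 29 (39.7%, beside 33.0%) and replicate 3 was highest for 28 (38.4%, beside 24.5%). E934 replicate 2 was the highest library for much of the genome, so the family's share there was near the background. By class, E934 replicate 1 was lowest for 25 of the 44 single-domain members and for 0 of the 14 without a listed domain. A library tied with another at 0 was not counted as lowest. This applied to members of the 14 such as HORVU.MOREX.r3.6HG0616410 and HORVU.MOREX.r3.3HG0261510. Among members with a mean of at least 1 TPM the counts were 17 of 29 and 0 of 5, beside 39.0% of all genes. These libraries were picked out after seeing the data, and the shares are a description.

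For the 29 single-domain members with a mean of at least 1 TPM, the median deviation from the mean of the genotype, on the log2 scale, was -0.22, 0.21 and -0.05 in E934 and 0.01, -0.22 and 0.17 in *msnsd*. Over all genes of at least 1 TPM the medians were -0.01, 0.07 and -0.04 in E934 and 0.04, 0.00 and -0.03 in *msnsd*. Members with 2 domains moved less, with -0.07, 0.11 and -0.05 in E934 and 0.00, -0.02 and 0.00 in *msnsd* for the 8 at this level. Of the 48 members with a mean of at least 1 TPM, 15 (31.2%) were both highest in E934 replicate 2 and lowest in *msnsd* replicate 2, beside 17.8% of all genes at that level. They were 11 of the 29 single-domain members, 3 of the 8 with 2 domains, 0 of the 6 with the zinc cluster and 1 of the 5 without a listed domain.

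**Figure D4:**
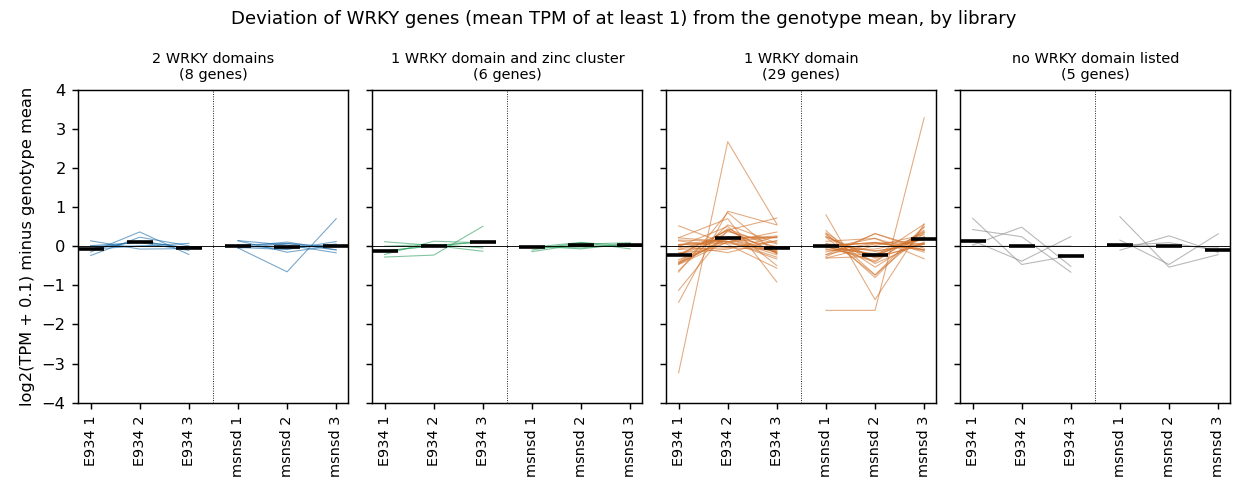
Deviation of each library from the mean of its genotype on the log2(TPM + 0.1) scale, with 1 thin line per WRKY gene of at least 1 TPM, a thick bar for the median of the domain class and a panel per class. Single-domain genes have medians of -0.22 in E934 replicate 1 and in *msnsd* replicate 2, and of 0.21 in E934 replicate 2 and 0.17 in *msnsd* replicate 3.

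Jasmonate ZIM and VQ motif genes were also high in E934 replicate 2 and low in *msnsd* replicate 2, and leaf genes were not. The median deviations of 15 jasmonate ZIM genes, repressors of jasmonate signalling, were -0.05, 0.37 and -0.38 in E934 and 0.09, -0.39 and 0.31 in *msnsd*. Those of 20 VQ motif genes were -0.16, 0.26 and -0.08 in E934 and 0.06, -0.16 and 0.06 in *msnsd*. The direction was not particular to these lists. In E934 replicate 2 and *msnsd* replicate 2 the medians were 0.36 and -0.24 for 6 chitinase genes. They were 0.18 and -0.07 for 26 MAP kinase genes and 0.18 and -0.07 for 44 calmodulin-binding genes. For 14 pathogenesis-related genes they were 0.18 and -0.04, and for 3 NPR1-type genes 0.08 and -0.09. The summed TPM of 37 leaf and green tissue genes, chlorophyll-binding proteins and the small subunit of Rubisco, ranged from 480 to 668 in E934 and from 508 to 776 in *msnsd*. It was highest in *msnsd* replicate 2, where 23 of the 31 tested leaf genes had their highest *msnsd* value, and lowest in *msnsd* replicate 1 within that genotype. The 48 heat shock genes summed to between 4473 and 4698 TPM in E934 and between 4031 and 4280 TPM in *msnsd*. None of these genes was at 0 in every library. The part of green tissue, stress or handling in the WRKY values was not tested.

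Several WRKY genes lie close together on a chromosome. HORVU.MOREX.r3.5HG0474120 (5H, 394044174 to 394046012) is the next annotated gene to HORVU.MOREX.r3.5HG0474130, 353.7 kb away, and read 0.77, 1.14 and 0.52 TPM across the E934 libraries and 1.73, 0.93 and 1.67 TPM across those of *msnsd*. Its level was far below that of its neighbour, while the log2 fold changes were 0.77 (SE 0.39) and 0.62 (SE 0.17). On 3H, HORVU.MOREX.r3.3HG0297530 (529737986 to 529739893) and HORVU.MOREX.r3.3HG0297550 (529847716 to 529848697) have 1 gene between them, also a WRKY gene. The former read 0.83, 1.18 and 0.98 TPM across the E934 libraries and 1.90, 1.29 and 1.65 TPM across those of *msnsd*, without overlap, and the latter had a log2 fold change of 0.46 (SE 0.31) with overlap, or 0.24 without E934 replicate 1 and 0.25 without *msnsd* replicate 3.

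The remaining pairs with both genes at 1 TPM or more lie on 3H and 1H. HORVU.MOREX.r3.3HG0273500 (3H, 380863253 to 380865097) read 0.94, 0.96 and 0.83 TPM across the E934 libraries and 1.01, 1.51 and 1.10 TPM across those of *msnsd*, without overlap and with a log2 fold change of 0.35 (SE 0.28), or 0.19 without *msnsd* replicate 2. HORVU.MOREX.r3.3HG0273660 (3H, 383190020 to 383192122) lies 2324.9 kb from it, with 8 genes between them. It read 0.50, 1.62 and 0.73 TPM across the E934 libraries and 1.53, 0.85 and 1.29 TPM across those of *msnsd*, with overlap. HORVU.MOREX.r3.1HG0090460 and HORVU.MOREX.r3.1HG0090520, described above for their spread, lie 76.5 kb apart on 1H with 5 genes between them, and their log2 fold changes were of opposite sign at 0.43 (SE 0.49) and -1.59 (SE 1.83).

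At the lower limit of the analysis, HORVU.MOREX.r3.6HG0616410 (mean 0.11 TPM) and HORVU.MOREX.r3.3HG0261510 (mean 0.10 TPM) were just inside the filter. The former was above 0 in 1 library of each genotype, and the latter was at 0.60 TPM in *msnsd* replicate 1 and listed at 0 in the other 5 libraries. HORVU.MOREX.r3.3HG0261510 is 1 of 3 low-confidence models of 429 bp described as WRKY DNA-binding protein 40. Their sequences were not compared, and whether reads were split between them was not tested. The value of HORVU.MOREX.r3.3HG0261510 rests on 1 library and is uncertain. HORVU.MOREX.r3.1HG0029360 (mean 0.0933 TPM) and HORVU.MOREX.r3.1HG0090480 (mean 0.0767 TPM) were just outside.

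Genes that act with WRKY proteins were counted by the same search of descriptions. VQ motif proteins bind WRKY proteins and modulate them. At an unadjusted p under 0.05, 6 of 27 tested had a higher level in *msnsd* and 1 a lower level, beside 5.57% and 5.09% of all genes, with a median log2 fold change of 0.29. Without *msnsd* replicate 2 the 6 became 3, and without E934 replicate 1 or 3 the 1 became 2. MAP kinase cascades phosphorylate WRKY proteins in Arabidopsis. Of 36 tested genes of that list, 5 were higher and 2 lower, with a median of -0.02, and 1 of the 5 is a subunit of a TOR complex rather than a kinase of the cascade. The 5 became 1 without *msnsd* replicate 1 or 3, 2 without E934 replicate 3, 3 without E934 replicate 1 and 8 without E934 replicate 2, and the 2 ranged from 0 to 4. The count over all genes also moved with the library left out, as given above. Neither list had a gene past the threshold.

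Genes of defence and hormone pathways in which WRKY proteins act were counted in the same way. Of 23 pathogenesis-related genes 5 were higher and 1 lower at an unadjusted p under 0.05, with a median log2 fold change of 0.03. The 5 became 1 without *msnsd* replicate 1 or 3, 2 without *msnsd* replicate 2 or E934 replicate 1, and 3 without E934 replicate 3, and the 1 lower ranged from 0 to 3. Of 16 chitinase genes, whose products cut fungal cell walls, 1 was higher and 0 lower, with a median of 0.13. Among 5 NPR1-type genes, regulators of the salicylic acid response, none had such a p, and among 55 calmodulin-binding genes 2 were higher and 2 lower (2 to 4 and 1 to 5 with a library left out). Of 18 jasmonate ZIM genes 3 were higher and 0 lower, with a median of 0.44, and 6 were higher without *msnsd* replicate 2. The 3 lie close together on 7H, between 108293769 and 108470876, and whether reads were split between them was not tested. None of these 5 lists had a gene past the threshold either. With every library, the shares for all genes were those given above, 5.57% higher and 5.09% lower. Of the marker lists, 14 of 74 young spike genes were higher and 10 lower, 3 and 2 of 31 leaf and green tissue genes, and 6 and 4 of 41 heat shock genes, with 1 young spike gene past the threshold, lower in *msnsd*.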

How the data were processed

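RNA-seq libraries of 3 E934 and 3 *msnsd* young panicle samples were grouped by the genotype in the sample labels. The authors trimmed reads with fastp, quantified transcripts with Salmon 1.9.0 on the Morex V3 assembly and deposited the TPM of each gene in each library, given to 2 decimals. The authors also deposited a mean normalized count over all libraries, treated here as a score and not used for any result. Their columns of fold changes, standard errors, test statistics, q-values and p-values before and after adjustment from DESeq2 were not used, and 0 per-library columns went unused. Depth cannot be recovered from TPM, so no counting interval is given. TPM sums were 999916 to 999936 per library, and 33227 to 35537 genes were above 0.

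The 32996 genes whose mean TPM reached 0.1 were fitted by limma 3.58.1 (R 4.3.3) to genotype alone, after log2 transformation of TPM + 0.1 and with eBayes allowing a mean-variance trend. Adjustment by Benjamini-Hochberg covered all of them. The paper's count model was not run, because TPM values are not counts. SDs of spread are pooled within genotypes on the same log2 scale. Python 3.11.15 with pandas 2.3.3 and matplotlib 3.10.9 served for counts and plots. The fit was also run on simulated data with changes larger than those of any WRKY gene, which does not show how it handles small changes. Coordinates are those of the deposited table.

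Named genes were the 10 of highest mean TPM, those with an unadjusted p under 0.05 and no overlap between genotypes, the 5 of largest spread and neighbours within 10 genes, the last 2 sets at a mean of at least 1 TPM, and the 2 genes on each side of the filter. Members and lists were chosen with earlier results of these data known. Alternatives were pseudocounts of 1 and 0.01, filters at a mean TPM of 1 and none, median-of-ratios and quantile scaling, no trend, a block for the replicate number, omission of each library in turn, and members chosen by Pfam domain.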

Additional observations from a re-analysis of the deposited data

How the results depend on the processing

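No WRKY gene passed the threshold under any alternative, where the count over all genes ranged from 0 to 30. The 7 members with a higher level in *msnsd* and an unadjusted p under 0.05 became 5 with the replicate block and 3 to 7 with 1 library left out, the fewest without *msnsd* replicate 3. The count was 4 without E934 replicate 1 or *msnsd* replicate 1. Over all genes the count at this cut, in both directions, ranged from 2296 to 5160 with 1 library left out. The 1 member lower in *msnsd* became 0 without the trend and 0 with members chosen by Pfam domain, which drops HORVU.MOREX.r3.2HG0207010, and 1 to 3 with 1 library left out (3 without E934 replicate 1, 2 without E934 replicate 2). Members highest in E934 replicate 2 fell from 34 to 27 with median-of-ratios scaling and to 24 with quantile scaling. Those highest in *msnsd* replicate 3 rose from 28 to 34 and 33. Those lowest in E934 replicate 1 went from 34 to 31 and 29, and those lowest in *msnsd* replicate 2 from 29 to 28 with either scaling. E934 replicate 2 had the largest median-of-ratios factor, 1.06. The shares over all genes after scaling were not computed, so these counts have no background beside them. Members highest in E934 replicate 2 and in *msnsd* replicate 3 were 22 and 18 among the single-domain members alone, an alternative added after seeing the data in which fewer genes are counted. The median log2 fold change of the family stayed between 0.10 and 0.25. Replicate numbers did not pair the libraries (correlations of same-numbered deviations across genes 0.02, -0.16 and 0.07), and with the replicate block 0 genes of the whole table passed the threshold. Over the libraries left out in turn, log2 fold changes changed sign for 9 named genes. They ranged from -0.032 to 0.56 for HORVU.MOREX.r3.1HG0042310, -0.13 to 0.79 for HORVU.MOREX.r3.1HG0090460, -0.62 to 0.78 for HORVU.MOREX.r3.1HG0092420, -0.087 to 0.017 for HORVU.MOREX.r3.2HG0130890, -0.072 to 0.61 for HORVU.MOREX.r3.3HG0278140, -0.30 to 0.048 for HORVU.MOREX.r3.3HG0288940, -0.15 to 0.021 for HORVU.MOREX.r3.5HG0509460, -0.56 to 0.81 for HORVU.MOREX.r3.6HG0616410 and -0.14 to 0.72 for HORVU.MOREX.r3.7HG0743280. Depth is unknown, and values below 1 TPM depend on the pseudocount. Counts of the related lists moved by over 1.5 times, or to or from 0, in 44 cases and did not in 250. The 250 include counts past the threshold that stayed at 0, such as those of VQ motif genes.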

Other observations

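A WRKY domain is also listed for 1 gene outside the family as counted here. HORVU.MOREX.r3.5HG0502310 on 5H (509066759 to 509073365) is described as a disease resistance protein of the NBS-LRR class, the intracellular immune receptors of plants, and has 2 WRKY domains. RRS1 of Arabidopsis is a known receptor of this class with a WRKY domain. The gene read 4.89, 5.35 and 3.98 TPM across the E934 libraries and 4.51, 4.45 and 4.05 TPM across those of *msnsd*, and its log2 fold change of -0.12 (SE 0.17, limma adjusted p = 0.832) was smaller than the spread between replicates.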
